A study of Mus musculus with 6 samples.

Results

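The CREB and ATF transcription factors and their coactivators were followed in RNA of mouse primary cortical neurons. The set held 10 genes, given as a list of symbols and matched to their Ensembl IDs, out of 55385 genes in the count files. They were the factors Creb1, Crem, Atf1, Atf2 and Atf3, the CREB-regulated coactivators Crtc1, Crtc2 and Crtc3, and the acetyltransferase coactivators Crebbp and Ep300. All 10 passed the low-count filter, which left 18132 genes for testing. The neurons came from the cortex of embryos at embryonic day 18 and were grown for 16 days. Every culture, controls included, had received the DNA synthesis inhibitor AraC at 2.5 uM for 24 hours from day 2. The 3 libraries labelled control were from untreated cells, and the 3 labelled activated were from cells given KCl for 5 minutes, washed, and left for 30 minutes before harvest. The KCl dose is 50 mM in one label and 50 uM in another, which the data cannot settle. Mouse strain, sex and the number of embryos per culture are not stated, and nothing says that replicates were separate cultures, so each p-value reflects only the variation among the 6 libraries, which may be technical.

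CREB1, CREM and ATF1 form a subfamily of leucine zipper proteins that bind the cAMP response element, or CRE. In neurons, calcium entry and cAMP lead to phosphorylation of their kinase-inducible domain, which then recruits the acetyltransferases CBP (gene Crebbp) and p300 (gene Ep300). The CRTC proteins move to the nucleus after dephosphorylation by calcineurin and bind CREB through its zipper. ATF2 works in pairs with JUN under stress-activated MAP kinases, and ATF3 is an early response factor that often represses transcription. Much of this regulation acts on the proteins, whereas the libraries report only RNA.

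Well known activity-induced genes, several of them CREB targets, were lower in the libraries labelled activated. Arc, for example, averaged 176 CPM (a gene's reads scaled to a common library size) in the control-labelled and 48.9 CPM in the activated-labelled libraries. Groups are therefore called by their labels, and each direction below rests on those labels. Were the 2 labels exchanged, every direction would turn, and the 4 genes called lower would be called higher. Gene reads per library ranged from 17752711 to 32919975, and the shallowest was activated replicate 1. Mitochondrial transcripts took 14.7% to 17.1% of gene reads in labelled control and 21.3% to 25.0% in labelled activated libraries. Neuronal identity was plain, with Camk2a at a mean of 1000 and 1282 CPM and Gad1 at 628 and 359 CPM in labelled control and labelled activated libraries. Markers of non-neuronal cells moved the other way from most neuronal ones: 14 of 15 astrocyte, 4 of 8 oligodendrocyte lineage, 8 of 13 microglia and 9 of 13 endothelial, mural and fibroblast markers passed as higher, and none passed as lower by edgeR, by DESeq2 or at an unadjusted p below 0.05. The microglia count rests on few libraries: it was 1 without control replicate 3 or activated replicate 3 and with the replicate block, 4 without control replicate 1 and in DESeq2, and 3 with total counts only. Over all tested genes 16.2% passed as higher and 20.6% as lower. Summed astrocyte markers ranged from 1319 to 1360 CPM in the control-labelled and from 1777 to 2165 CPM in the activated-labelled libraries. The sums were 254 to 288 and 400.3 to 464 CPM for endothelial, mural and fibroblast markers, 60.8 to 66.0 and 79.7 to 91.2 CPM for the oligodendrocyte lineage, and 59.7 to 82.1 and 72.7 to 139 CPM for microglia. The oligodendrocyte gene Gpr17 had no reads, and the endothelial genes Cldn5 and Cdh5 had at most 1 read in any library. Summed inhibitory neuron markers ranged from 2931 to 3077 and from 2296 to 2561 CPM, and 11 of 18 were lower. Summed excitatory markers ranged from 2410 to 2531 and from 2532 to 2722 CPM, although 9 of 16 were lower (median log2 fold change −0.32) and 1, the abundant Camk2a, was higher. With total counts only the excitatory sums overlapped, from 2475.5 to 2601.4 in labelled control and from 2483.7 to 2576.2 CPM in labelled activated libraries. These shifts move with every result below, and their part in them was not tested. Fewer cells of a type and less RNA per cell cannot be told apart in such bulk samples.

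Because promoters are where CRE sequences are usually sought, the stretch before the start site is shown for the 4 factors that RefSeq's promoter table (GRCm38.p6) covered. The table matched 8 of the 10 genes, without Crem and Crtc2. Each sequence below lies before the RefSeq start and runs at most 30 bases past the first GENCODE start that falls inside it. For Atf3 that is the internal start at 191183340, so the stretch lies inside the annotated gene, whose most upstream start is at 191218039. Capitals mark the short CRE core TGACG or its reverse complement CGTCA.
Atf3, chr1:191183334-191183583, minus strand: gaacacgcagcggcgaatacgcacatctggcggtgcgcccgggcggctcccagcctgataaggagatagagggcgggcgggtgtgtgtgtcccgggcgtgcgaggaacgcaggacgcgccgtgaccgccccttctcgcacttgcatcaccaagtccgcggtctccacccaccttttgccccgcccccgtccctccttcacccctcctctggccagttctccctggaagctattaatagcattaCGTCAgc
Atf1, chr15:100227609-100227848, plus strand: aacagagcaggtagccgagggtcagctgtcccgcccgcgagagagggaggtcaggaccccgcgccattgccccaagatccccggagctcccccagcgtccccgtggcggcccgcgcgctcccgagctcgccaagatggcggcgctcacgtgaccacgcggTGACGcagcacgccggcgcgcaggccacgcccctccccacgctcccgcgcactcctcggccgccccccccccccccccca
Creb1, chr1:64532554-64532674, plus strand: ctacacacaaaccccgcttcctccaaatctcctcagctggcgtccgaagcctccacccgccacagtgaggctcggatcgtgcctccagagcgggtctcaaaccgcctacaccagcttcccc
Atf2, chr2:73892640-73892889, minus strand: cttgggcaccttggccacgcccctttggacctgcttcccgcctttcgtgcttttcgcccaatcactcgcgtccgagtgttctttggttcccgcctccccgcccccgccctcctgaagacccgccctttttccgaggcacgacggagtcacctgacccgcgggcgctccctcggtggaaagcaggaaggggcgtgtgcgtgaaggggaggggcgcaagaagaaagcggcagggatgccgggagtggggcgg
Both strands of the 8 windows, each 300 bases long from 250 before to 50 after the RefSeq start, were searched for the full CRE (TGACGTCA), for the short core, which lies within the full CRE, and for the AP-1 element TGACTCA. The short core was in 2 windows, with its first base 7 before the RefSeq start of Atf3 and 90 before that of Atf1. The first GENCODE start inside each of these stretches lies upstream of the RefSeq start, so distances from it differ. The full CRE and the AP-1 element were in 0 of 8. Among all 32851 promoter windows of that length, 20.8% held the short core, 1.79% the full CRE and 5.2% the AP-1 element. A match is a description of letters and not evidence of binding, and Atf3 and Atf1 differ in how they compared between the groups.

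Of the 10 genes, 4 were lower in the libraries labelled activated and 6 did not pass (edgeR quasi-likelihood test, adjusted p below 0.05). Atf3 and Atf2 fell most, by 1.10 and 0.44 on the log2 scale. Crebbp and Creb1 fell by 0.20 and 0.18. Across all tested genes 36.8% were called in either direction and 20.6% were called lower, as were 32% of the 11207 genes with a mean of at least 5 CPM, a level that all 10 genes reached. None of the 10 was called higher, where the background was 16.2%. The split over all genes, 2945 higher and 3733 lower, depended on scaling: it was 4834 and 1989 with libraries scaled to summed neuron markers, and 2089 and 4576 with total counts only. At an unadjusted p below 0.05, 1 gene (Crtc2) was higher, and DESeq2 called 0 higher and 3 lower. The groups of 3 libraries did not overlap for 6 of the 10, beside 49% of all tested genes. The median log2 fold change of the 10 was −0.07, and that of all tested genes was 0.04.

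The calls were not equally firm. Atf2 and Atf3 were called lower in each of the 17 alternative analyses, whereas Creb1 lost its call in 11 and Crebbp in 9. With libraries scaled to the summed neuron markers, which moved the median of all genes from 0.04 to 0.17, Atf2 and Atf3 were the 2 genes still lower and Crtc2 became the 1 called higher.

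**Figure D1:**
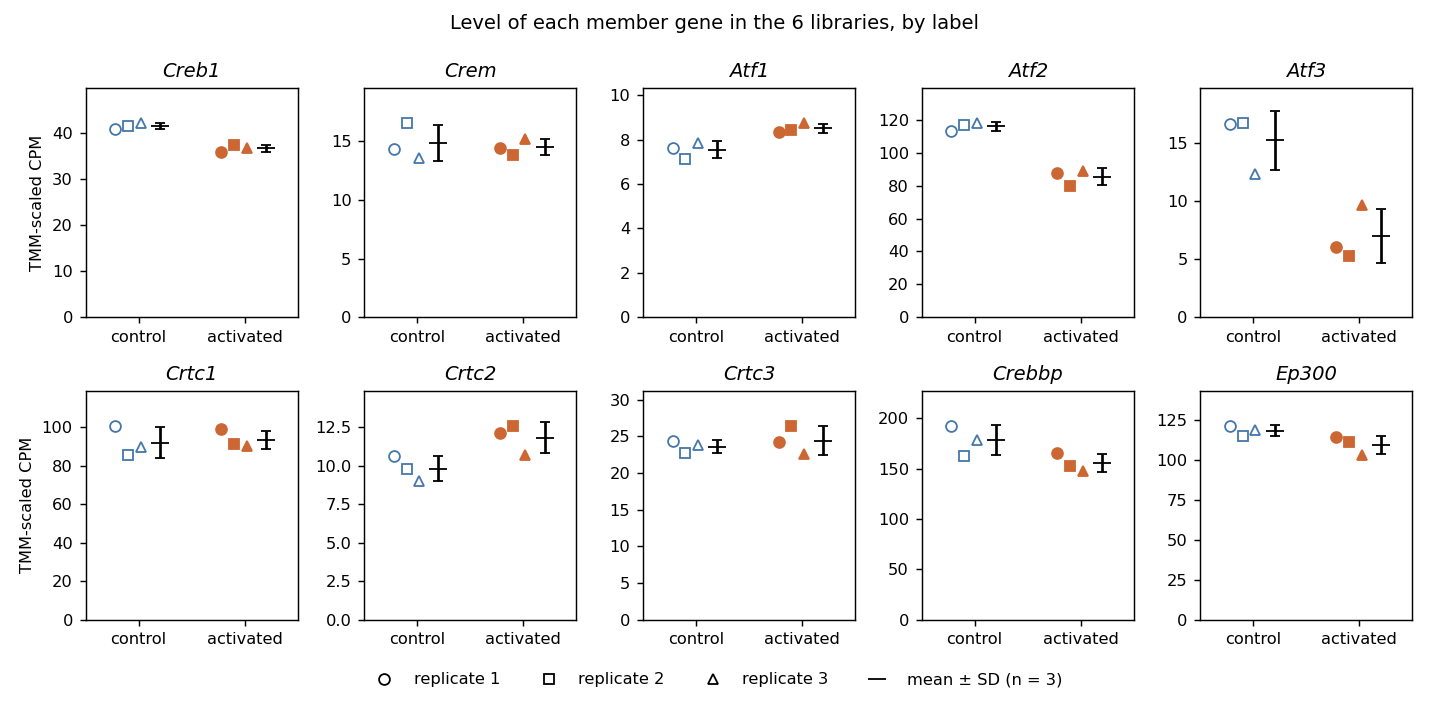
Normalised level (TMM-scaled CPM, vertical axis from 0, a separate scale for each gene) of the 10 genes in each library, by label. Symbols are replicates, and bars are the mean and SD of 3. Atf2 and Atf3 show the widest gaps between groups, and the groups overlap for Crem, Crtc1, Crtc3 and Crebbp.

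Creb1 (ENSMUSG00000025958.14, GRCm38 chromosome 1, 64532645 to 64604548, plus strand) encodes the founding CRE-binding activator. Its level was 40.8, 41.5 and 42.1 CPM in control replicates 1, 2 and 3, and 35.8, 37.3 and 36.7 CPM in activated replicates 1, 2 and 3. All labelled activated values lay below all labelled control values. The log2 fold change was −0.18 ± 0.06 (SE; 95% interval −0.31 to −0.05; edgeR adjusted p = 0.0358), so the level fell by 11.6%. This call was lost when any single library was left out, with log2 fold changes from −0.19 to −0.16 and adjusted p from 0.0501 to 0.131 in edgeR. With the neuron marker scaling the value was −0.05 (edgeR adjusted p = 0.588).

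Crem (ENSMUSG00000063889.16, chromosome 18, 3266048 to 3337748, minus strand) encodes activators and, from an internal promoter, the inducible repressor ICER, a classic early CREB target. It stood at 14.4, 16.6 and 13.6 CPM in the control-labelled and at 14.4, 13.9 and 15.2 CPM in the activated-labelled libraries. The groups overlapped, and no difference was found (log2 fold change −0.03, 95% interval −0.24 to 0.18; edgeR adjusted p = 0.837). The sign turned with some settings, for example to 0.07 without control replicate 2. GENCODE lists 39 transcripts of Crem with 26 distinct starts, and the counts are 1 sum per gene, so ICER cannot be told apart from the longer forms. On the opposite strand the noncoding Gm6225 shares 472 exon bases with Crem, which stranded counting separates.

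Atf1 (ENSMUSG00000023027.13, chromosome 15, 100227819 to 100261244, plus strand) encodes the third member of the subfamily. It had 7.63, 7.11 and 7.86 CPM in the control-labelled and 8.33, 8.44 and 8.75 CPM in the activated-labelled libraries. Although the groups did not overlap, the gene did not pass (log2 fold change 0.17 ± 0.11 SE, 95% interval −0.06 to 0.41; edgeR adjusted p = 0.219). Its counts, 140 to 279 reads per library, give an interval wide enough to hold both no difference and a 1.33-fold higher level.

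Atf2 (ENSMUSG00000027104.18, chromosome 2, 73816509 to 73892639, minus strand), the JUN partner that stress kinases phosphorylate, had 113, 117 and 118 CPM in labelled control replicates. In labelled activated replicates it had 88.0, 79.7 and 89.1 CPM. The lowest control value exceeded the highest activated value by a wide margin. The log2 fold change was −0.44 ± 0.06 (SE; 95% interval −0.58 to −0.31; edgeR adjusted p = 0.00017), so the level fell by 26.3%. Over the 17 alternatives it lay between −0.51 and −0.32, with a highest adjusted p of 0.0018.

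Atf3 (ENSMUSG00000026628.13, chromosome 1, 191170296 to 191218039, minus strand), the stress- and activity-induced repressor, was 16.6, 16.7 and 12.3 CPM in control replicates 1, 2 and 3. It was 6.01, 5.28 and 9.60 CPM in activated replicates 1, 2 and 3. Control replicate 3 and activated replicate 3 lay nearest to each other, yet the groups did not overlap. The log2 fold change was −1.10 ± 0.19 (SE; 95% interval −1.49 to −0.70; edgeR adjusted p = 0.000509), so the level fell by 53.2%. Leaving out single libraries gave −1.44 to −0.91, the first without activated replicate 3, and the call held each time. The genes whose profile over the 6 libraries was closest to Atf3, by the root mean square difference of centred log2 CPM, were the AP-1 gene Fos (0.15), the processed pseudogene Gm6560 (0.17) and the TGF-beta-inducible repressor gene Klf10 (0.18). Gm6560 was near 1 CPM and lost its call when control replicate 1 (−0.86), activated replicate 1 (−0.85) or activated replicate 2 (−0.77) was omitted.

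The CRTC coactivators did not pass. Crtc1 (ENSMUSG00000003575.13, chromosome 8, 70382355 to 70439579, minus strand), the form best known in neurons, had 101, 85.4 and 89.9 CPM in the control-labelled and 98.9, 91.2 and 90.2 CPM in the activated-labelled libraries. The groups overlapped (log2 fold change 0.02, 95% interval −0.13 to 0.17; edgeR adjusted p = 0.853), and the sign turned in 5 of 17 alternatives. Crtc3 (ENSMUSG00000030527.15, chromosome 7, 80586627 to 80688877, minus strand) had 24.4, 22.7 and 23.8 CPM against 24.3, 26.5 and 22.6 CPM, also overlapping (0.05, interval −0.12 to 0.22; edgeR adjusted p = 0.662). Its sign turned when only total counts scaled the libraries, and when activated replicate 2 was left out.

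Crtc2 (ENSMUSG00000027936.18, chromosome 3, 90254163 to 90264125, plus strand), known for the cAMP response of liver, differed from the other CRTC genes in that its groups did not overlap. It had 10.6, 9.78 and 9.05 CPM in the control-labelled and 12.1, 12.6 and 10.7 CPM in the activated-labelled libraries. The log2 fold change of 0.26 ± 0.11 (SE; 95% interval 0.03 to 0.49) missed the threshold (edgeR adjusted p = 0.0668). It passed without activated replicate 3 (0.34, adjusted p = 0.0226), with a filter of 1 CPM in 3 libraries (0.30, adjusted p = 0.039) and with the neuron marker scaling (0.39, adjusted p = 0.0183).

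Both acetyltransferase genes had lower means in the libraries labelled activated, and 1 of them passed. Crebbp (ENSMUSG00000022521.10, chromosome 16, 4081328 to 4213997, minus strand) had 193, 163 and 178 CPM in the control-labelled and 165, 153 and 148 CPM in the activated-labelled libraries. Control replicate 2 lay just below activated replicate 1, so the groups overlapped. The log2 fold change was −0.20 ± 0.07 (SE; 95% interval −0.35 to −0.05; edgeR adjusted p = 0.042). Without control replicate 1 it was −0.13 (edgeR adjusted p = 0.191), and the call was also lost without control replicate 3 (−0.19), activated replicate 2 (−0.19) or activated replicate 3 (−0.17). Offsets for transcript length and GC content gave −0.17 (edgeR adjusted p = 0.0748), and the neuron marker scaling gave −0.08 (edgeR adjusted p = 0.381).

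Ep300 (ENSMUSG00000055024.12, chromosome 15, 81585351 to 81652077, plus strand) had 121, 115 and 119 CPM against 114, 111 and 103 CPM. The highest activated value lay just under the lowest control value. It did not pass (log2 fold change −0.11, 95% interval −0.25 to 0.02; edgeR adjusted p = 0.162). With total counts only it passed at −0.18 (edgeR adjusted p = 0.0282), and with the neuron marker scaling the value turned to 0.01. A gene annotated as a microRNA, Gm23880, shares 54 exon bases with Ep300 on the same strand. Gm27421, annotated as a miscellaneous RNA, shares 167 exon bases with Atf2, also on the same strand.

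**Figure D2:**
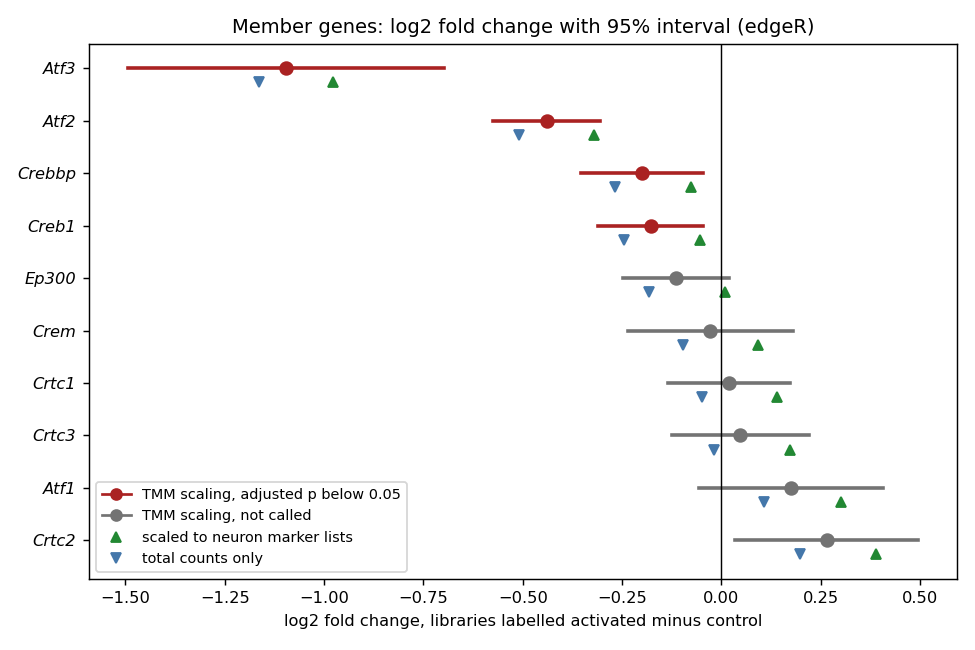
Log2 fold change of each gene (horizontal axis, libraries labelled activated minus control) with its 95% interval from edgeR, red where the adjusted p was below 0.05. Triangles give the value with the neuron marker scaling or with total counts only. Atf3 and Atf2 lie below 0 under each of the 3 scalings.

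Levels were compared between genes only as CPM per kb of merged annotated exons. In labelled control libraries the order was Atf2 (14.2 ± 0.31), Crebbp (13.1 ± 1.09), Ep300 (8.29 ± 0.23), Crtc1 (8.23 ± 0.71) and Atf3 (7.05 ± 1.16), in CPM per kb (mean and SD, n = 3). Creb1 (3.02 ± 0.05), Crem (2.52 ± 0.26), Atf1 (2.46 ± 0.13), Crtc2 (2.40 ± 0.19) and Crtc3 (2.40 ± 0.09) followed on the same scale. Between neighbours in this order, Crebbp and Ep300, Atf3 and Creb1, and Creb1 and Crem did not overlap over the 3 libraries, and the other 6 neighbouring pairs did. So Atf3 stood above Creb1 per length in the libraries labelled control. In the libraries labelled activated Crebbp (11.5 ± 0.66 CPM per kb) preceded Atf2 (10.5 ± 0.62), while Atf3 was at 3.23 ± 1.07 and Creb1 at 2.66 ± 0.05 CPM per kb. Dividing by the longest transcript instead kept the first 5 places in labelled control libraries and changed 4 of the lower ones. It put Atf2 back in first place and Atf3 last in the libraries labelled activated.

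Ratios between related genes within a library do not depend on how libraries are scaled, and 6 pairs were compared by an exact two-sided permutation test whose smallest possible p is 0.1. The log2 ratio of Atf1 to Creb1 reads was −2.42, −2.54 and −2.42 in labelled control and −2.10, −2.14 and −2.07 in labelled activated libraries. The groups did not overlap, and the ratio was 0.35 higher in the libraries labelled activated (exact p = 0.1; adjusted p = 0.3 over the 6 pairs). Crtc2 to Crtc1 was likewise apart, with means of −3.23 and −2.99, 0.24 higher (exact p = 0.1; adjusted p = 0.3). The Atf3 to Atf2 ratio had means of −2.95 and −3.67, but activated replicate 3 (−3.21) lay above control replicate 3 (−3.26), so the groups overlapped (exact p = 0.2; adjusted p = 0.3). Crem to Creb1 (0.15 higher; exact p = 0.2), Ep300 to Crebbp (0.08 higher; exact p = 0.3) and Crtc3 to Crtc1 (0.02 higher; exact p = 0.8) overlapped as well. With a smallest possible p of 0.1, none of the 6 pairs could pass a threshold of 0.05, so the test decides nothing here.

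**Figure D3:**
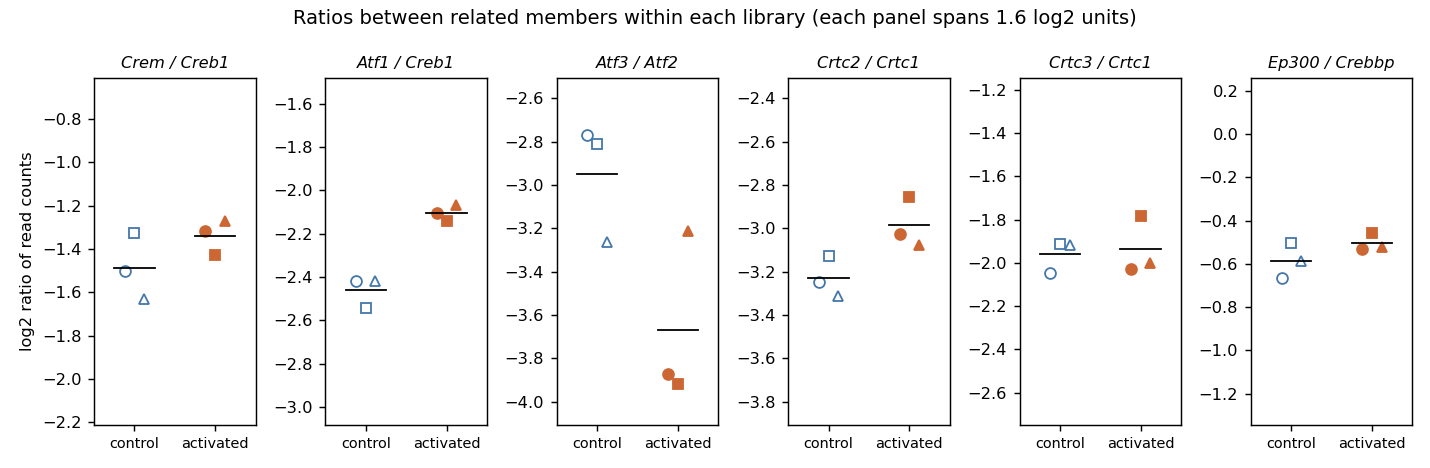
Log2 ratio of read counts between related genes in each library (vertical axis; each panel spans the same range), with replicates as in the plot of levels and the group mean as a line. Atf1 to Creb1 and Crtc2 to Crtc1 are the 2 pairs whose groups do not overlap.

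The genes around these factors were read from 8 lists, 170 tested genes in all besides the 10. Of these, 89 were lower (52.4%) and 14 higher (8.24%), with a median log2 fold change of −0.22. The 8 lists include the CREB targets, drawn up with the direction of their early genes in these libraries known. The pooled shares are therefore no independent evidence. Over all tested genes 20.6% were lower and 16.2% higher. Among genes with a mean of at least 5 CPM these shares were 32% and 16.7%. Each list count below is to be read beside them. The share called lower was larger above that level, and no background was matched to the levels of each list. The kinases that phosphorylate CREB or lead to it were mostly lower: 23 of 28 passed as lower, 1 was higher and 4 did not pass (median −0.31). The regulatory subunits of protein kinase A Prkar1a (452 to 286 CPM, log2 fold change −0.66) and Prkar1b (323 to 212 CPM, −0.61) and its catalytic subunit Prkacb (385 to 254 CPM, −0.60) had the smallest p. Camk4, the nuclear calcium-dependent CREB kinase, fell by 0.33. The 1 kinase that rose was Camk2a (0.36). With the neuron marker scaling 14 were lower and 1 higher. Camk2a is itself one of the summed neuron markers, as is Sst among the CREB targets, so both help to set that scale.

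Transcripts of the proteins that set where CRTCs reside were lower too: 10 of 14 fell, none passed as higher and 4 did not pass (median −0.43; 0 higher at an unadjusted p below 0.05 and in DESeq2). They included Ywhah (298 to 180 CPM, −0.73) and Ywhab (−0.55), adaptor proteins that hold phosphorylated CRTCs in the cytoplasm, and Ppp3r1 (215 to 134 CPM, −0.69), the regulatory subunit of calcineurin. Sik1, a kinase that phosphorylates CRTCs and is itself a CREB target, had 58.1 and 47.3 CPM and missed the threshold (log2 fold change −0.29; edgeR adjusted p = 0.0546), but passed in 6 of 17 alternatives, among them without activated replicate 3 (−0.48, adjusted p = 8.05e-05), with total counts only (−0.36, adjusted p = 0.0202) and in DESeq2 (−0.29, adjusted p = 0.0371). With the neuron marker scaling 8 of the 14 were lower.

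Genes of cAMP synthesis and breakdown had no shared direction: 9 of 23 were lower (39.1%), 3 higher (13%) and 11 did not pass. All genes at 5 CPM or more had 32% lower and 16.7% higher. The list median was −0.01, and 0.11 with the neuron marker scaling. The protein kinase A inhibitor gene Pkia (−0.52), the inhibitory G protein gene Gnai1 (−0.65) and the phosphodiesterase gene Pde1b (−0.45) fell. The adenylyl cyclase genes Adcy6 and Adcy2 (both 0.30) and another inhibitory G protein gene, Gnai2 (0.27), rose. Gnai2 had no call without control replicate 3 (0.24) or activated replicate 3 (0.17). It also had none with total counts only (0.20) or with the replicate block (0.27).

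Other acetyltransferases, deacetylases, corepressors and the phosphatases that act on CREB were lower for 16 of 25 and higher for none, with 9 not passing (median −0.25; 0 higher at an unadjusted p below 0.05 and in DESeq2). The phosphatase catalytic subunits Ppp2ca (315 to 191 CPM, −0.73) and Ppp1ca (−0.53) and the CBP-binding regulator Cited2 (−0.58) had the smallest p. With the neuron marker scaling 10 were lower and 1 higher.

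The other CREB and ATF family genes differed in direction among themselves. Of 12 tested (of 17 listed), 4 were higher, 2 lower and 6 did not pass (median 0.12). Atf4, the factor of the amino acid and integrated stress response, went from 99.5 to 59.7 CPM (−0.73 ± 0.08 SE; edgeR adjusted p = 2.48e-05), and Jdp2, a repressor that pairs with JUN, fell by 0.35 on the log2 scale. Jdp2 lost its call without control replicate 2 (−0.29) or control replicate 3 (−0.33) and with the neuron marker scaling (−0.23). Creb3l2 (11.2 to 19.3 CPM, 0.78) and Creb3l1 (0.53), membrane-bound factors of the secretory pathway, rose, as did Creb5 (0.52) and the ATF2 paralogue Atf7 (17.0 against 12.8 CPM, 0.40). Atf7 was not called without control replicate 2 (0.30), activated replicate 1 (0.35) or activated replicate 2 (0.35). So Atf2 fell while its paralogue Atf7 rose.

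**Figure D4:**
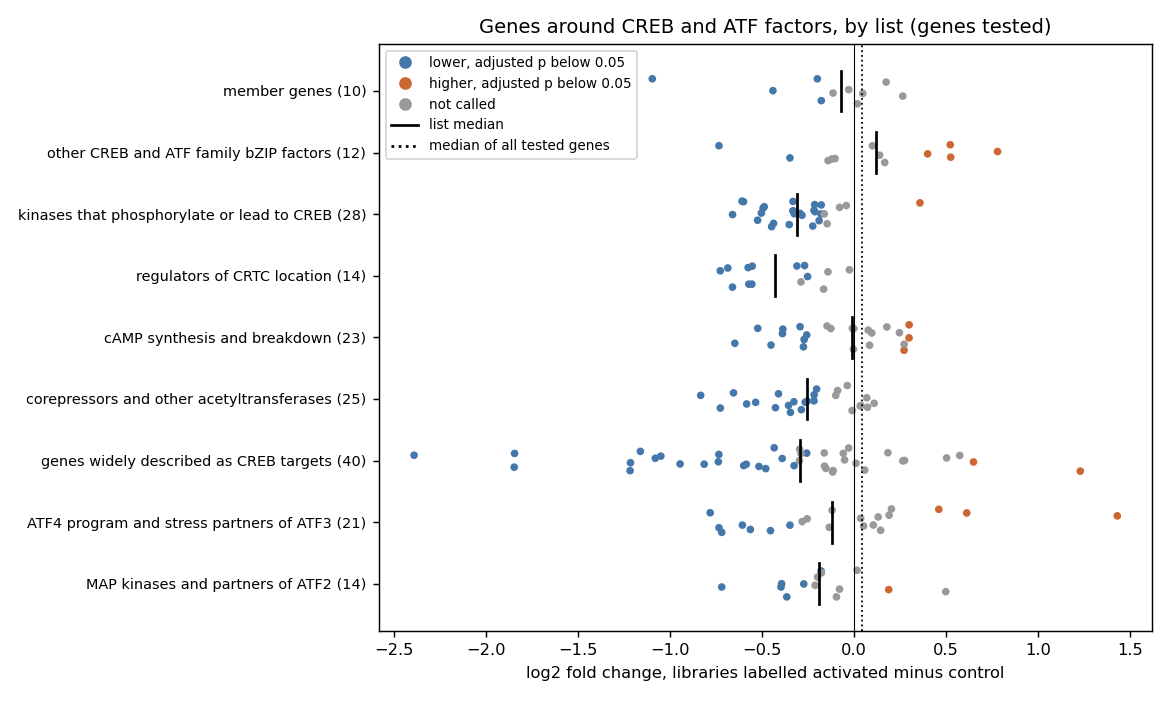
Log2 fold change (horizontal axis, libraries labelled activated minus control) of each tested gene in the set of 10 and in the 8 surrounding lists, coloured by call, with list medians as bars and the median of all tested genes (0.04) dotted. Kinases and CRTC regulators lie almost wholly below 0.

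Genes widely described as CREB targets were lower for 20 of 40 (50%), higher for 2 (5%) and not called for 18 (median −0.30). All genes at 5 CPM or more had 32% lower and 16.7% higher. Crem is among the 40 listed targets. This list was drawn up with the direction of its early genes in these libraries already known, so it is no independent evidence. The count higher was 4 without activated replicate 1 and with the neuron marker scaling, and 6 with no filter, and the count lower was 29 without activated replicate 3. Fosb, Arc and Npas4 had the smallest p, with log2 fold changes of −2.39, −1.84 and −1.84. Per1, the clock gene with a CRE promoter, fell by 0.52. The 2 that rose were the matrix gene Ccn1 (0.65) and the small GTPase gene Gem (1.33 to 3.07 CPM, 1.23). The secreted targets Bdnf, Vgf, Scg2, Nptx2, Sst and Penk did not pass. For several of them activated replicate 3 stood above the other 5 libraries, as for Bdnf (83.6, 81.8 and 74.8 CPM in control-labelled replicates, then 67.4, 62.1 and 111 CPM) and Scg2 (423, 411 and 311 CPM, then 328, 322 and 541 CPM).

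Of 14 MAP kinases and partners of ATF2, 6 were lower (42.9%), 1 higher (7.14%) and 7 not called (median −0.19). All genes at 5 CPM or more had 32% lower and 16.7% higher. The lower genes of the list were led by Jun (76.8 to 46.5 CPM, −0.72), Map2k4 (−0.40) and Mapk8 (−0.39). The last 2 are a kinase of the JNK pathway and JNK1 itself. Mapk8ip3, a JNK scaffold gene, had 0.19 and lost its call in 7 of 17 alternatives, among them without control replicate 2 or 3 or activated replicate 1. Of 21 genes of the ATF4 program and stress partners of ATF3, 7 were lower (33.3%), 3 higher (14.3%) and 11 not called (median −0.12), shares near those of all genes at 5 CPM or more (32% lower, 16.7% higher). Atf4, Jund (98.8 to 57.4 CPM, −0.78) and Jun led this list. Gdf15 (0.94 to 2.65 CPM, 1.43), Gadd45a (0.61) and Cebpb (0.46) rose. Cebpb had no call when control replicate 1 (0.37), control replicate 3 (0.40) or activated replicate 3 (0.29) was omitted, and Gadd45a had none in unstranded counts (0.47). Ddit3 and Trib3, stress targets of ATF4, did not pass.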

How the data were processed

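RNA of 6 libraries of mouse cortical neurons was measured by strand-specific, ribosome-depleted sequencing of 2x150 bp reads, per the labels' protocols. The deposited files hold raw read counts per gene; the submitters' processing notes name STAR 2.5.2b, the mm10 build and edgeR. The annotation release and counting options are not given in the sources used here. The reverse-strand counts were analysed, and 4 lines naming no gene (42.3% to 50.7% of reads per library) stayed out of library sizes and tests. Symbols and positions came from GENCODE mouse release 21 (GRCm38), which held 55144 of 55385 gene IDs.

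Genes passed filterByExpr (minimum count 10, minimum total 15). Libraries were scaled by TMM, and the groups compared by the quasi-likelihood test of edgeR 4.0.16 (R 4.3.3) with no other term, adjusted by Benjamini-Hochberg over all tested genes. Each SE was the size of the log2 fold change divided by the root of the F statistic. The test was checked on simulated data. The alternatives were DESeq2 1.42.0 size factors, its Wald test, total counts, scaling to summed neuron marker counts, the likelihood-ratio test, 2 other filters, unstranded counts, a replicate block, spline offsets (4 degrees of freedom) for length and GC content, and each library left out. Plots used matplotlib 3.10.9.

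The genes and lists were chosen with earlier results of these data known. Named from each list are the 3 genes past the threshold with the smallest p; for Atf3, the 3 nearest profiles among tested genes that have a symbol and average 0 or more in log2 CPM. Genes chosen after their values were seen are the other genes called higher, Jdp2, Camk4, Sik1, Per1, Ddit3, Trib3 and the secreted targets. The background of genes at 5 CPM or more was also chosen after seeing the data.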

Additional observations from a re-analysis of the deposited data

Results flagged for a closer look

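Reads on the strand opposite to Creb1 made up a larger share of both strands' reads in each library labelled activated than in any labelled control, in the count column that the comparison did not use. The share averaged 2.68% in labelled activated and 1.76% in labelled control libraries, with 3.06%, 2.81% and 2.17% against 2.12%, 1.11% and 2.06% in replicates 1, 2 and 3. These are few reads, 19, 30 and 26 against 25, 11 and 30, and the difference was not tested. The share also depends on the Creb1 reads of the counted strand, which were called lower in the libraries labelled activated. The parts of the 2 strands in it were not separated. Over all genes the opposite strand held 4.05% to 4.29% of reads per library. None of the other 9 genes had every labelled activated share above every labelled control share. Crebbp was apart the other way. Its shares were 0.17%, 0.26% and 0.17% in labelled control and 0.07%, 0.14% and 0.13% in labelled activated replicates 1, 2 and 3. These rest on 9, 10 and 10 against 2, 6 and 6 reads and were not tested either. How many of all genes have groups apart in this share was not computed, so neither gene is shown to stand out.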

How the results depend on the processing

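Of the 10 genes, Atf2 and Atf3 kept their direction and call in all 17 alternatives. The count of genes lower was 2, not 4, with the neuron marker scaling, with the filter of 1 CPM in 3 libraries and with the replicate block, and 2 to 3 when single libraries were left out. The count higher was 1, not 0, with the neuron marker scaling and that filter, and 0 to 1 when single libraries were left out. The neuron marker scaling gave 4834 genes higher and 1989 lower in all, and 23 pathway genes higher in place of 14. The same-numbered libraries did not deviate together (correlations of −0.014, −0.182 and −0.215 across genes). With deviations taken within groups of 3 libraries, this cannot tell whether a replicate number marks a shared culture. Under the replicate block Creb1 (−0.18) and Crebbp (−0.20) had no call.

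Signs turned for genes with no call. Crem was 0.092 with the neuron marker scaling, 0.0097 with the 1 CPM filter, 0.067 without control replicate 2 and 0.0058 without activated replicate 2. Crtc1 was −0.050 with total counts, −0.00016 with no filter, −0.013 in unstranded counts, −0.017 without control replicate 2 and −0.024 without activated replicate 1. Crtc3 was −0.018 with total counts and −0.017 without activated replicate 2, and Ep300 0.0078 with the neuron marker scaling. Over the 6 libraries left out in turn, Crem ranged from −0.088 to 0.067, Crtc1 from −0.024 to 0.098 and Crtc3 from −0.017 to 0.106. Where no value shows it, the cause was not tested. Creb1 also lost its call with DESeq2's Wald test (−0.18), with no filter (−0.20) and with the 1 CPM filter (−0.14), and Crebbp with that filter (−0.16) and with the block and offsets together (−0.17). The count of pathway genes lower stayed within 1.5 times of the main count, and the 6 within-library ratios within 1 SD in the alternatives run on them (unstranded counts and each library left out). What depth limits was not tested; Atf1, Crtc2, Crem and Atf3 had the fewest reads of the 10.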

Other observations

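Of the 17 other family genes listed, 5 had too few reads to be tested. Among them Batf3, whose product pairs with JUN, had 5, 7 and 8 reads in labelled control and 1, 1 and 2 reads in labelled activated libraries. Creb3l3, a liver factor of the same membrane-bound branch as Creb3l2, had 1, 2 and 4 against 6, 7 and 6 reads. At this depth neither supports a fold change.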
